A study of Mus musculus with 17 samples.

Results

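The imprinted growth genes examined here were Peg3, Plagl1, Mest, Ndn, Dlk1, Cdkn1c, Meg3, Rian and H19, a list of 9 names. In mouse skeletal muscle, 8 of the 9 were measured by a probe set that carries their symbol alone, out of 19938 genes measured in that way. H19 stands under no single symbol in the probe annotation and was not analysed here. Peg3 was put forward because it was among the largest rises of diabetic over control muscle in an earlier pass over these arrays, so it was chosen by its measured level in STZ,SD against Con,SD, and that difference is given as a description with no test. The other 7 measured genes were listed for being imprinted regulators of growth, but with earlier results of these data known. Their p-values and counts below may therefore not be independent of these arrays. Where a gene has several probe sets, the one with the highest mean over all arrays is used, but each of the 8 had 1 such probe set.

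Genomic imprinting is the expression of a gene from the copy inherited from one parent only, set by DNA methylation marks laid down in the germ line. Imprinted genes lie in clusters that share control regions, and many of them regulate growth before birth and are then turned down in most adult tissues. Peg3, also called Pw1, encodes a zinc finger protein made from the paternal copy, and in skeletal muscle it is known from satellite cells, the stem cells of the fibre, and from interstitial progenitor cells. Plagl1, another paternally expressed zinc finger factor, is known to regulate other imprinted genes. Cdkn1c encodes the cyclin-dependent kinase inhibitor p57, and Meg3 and Rian are maternally expressed long noncoding RNAs from the cluster that also holds the paternally expressed Dlk1. The arrays measure total RNA of a gene and do not separate the parental copies.

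RNA came from skeletal muscle of 17 male wildtype C57BL/6N mice aged 5 to 6 months, with 1 array per mouse. The Con,SD group (n = 7) was mock-injected with citrate buffer and ate standard diet. The STZ,SD group (n = 5) was injected with streptozotocin, which kills pancreatic beta cells and so removes insulin, at 65 mg/kg on 5 days at an age of 10 to 16 weeks according to the labels, and ate the same diet. The STZ,BEZ group (n = 5) received the same injections and then, starting 2 weeks later, 8 weeks of chow with 0.25% or 0.5% bezafibrate, an activator of the PPAR nuclear receptors. The labels do not say which mouse ate which strength, and the study's methods text departs from them, with less streptozotocin, the stronger diet alone and controls without mock injection. Which muscle was sampled is not stated in the labels or methods. All values are log2 expression from arrays of the Affymetrix Mouse Gene ST type, so a difference of 1 is a doubling, and levels of different genes are not compared because each probe set has its own brightness.

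Array medians lay between 6.22 and 6.32, which is no check of the arrays because the deposited values had already been equalised between them. The 8 markers of the muscle fibre had mean levels of 13 to 13.4 on every array. Con,SD replicate 1 stood apart with a mean level of 12.5 over 7 hepatocyte markers, against 7.96 to 10.5 on the other 16 arrays, and its median correlation with the other arrays of its group was 0.97. Among the members it lay at the low end of the controls for Dlk1, Meg3, Plagl1 and Rian. Without it, 4 of the 7 members other than Peg3 were called in STZ,SD against Con,SD and 5 of the 8 members in STZ,BEZ against Con,SD, as with it. The hepatocyte level also moved with the groups, its mean being 9.9 for Con,SD mice, 9.09 for STZ,SD mice and 8.39 for STZ,BEZ mice. Of the 7 markers, 2 fell in STZ,SD and 5 fell in STZ,BEZ against Con,SD, where their median difference was -1.43.

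The starts of 4 members that differed between diabetic and control muscle are shown first, because their transcripts are what the arrays compare. The windows hold the 250 bases before the first listed start, 5′ to 3′ on the gene's strand, from RefSeq (GRCm38.p6), which had a window for 7 of the 9 names. They are chr7:6730420-6730669 on the minus strand for Peg3, chr12:109540746-109540995 on the plus strand for Meg3, chr10:13090582-13090831 on the plus strand for Plagl1, and chr7:62348027-62348276 on the plus strand for Ndn. Capitals mark TGACGTCA, the palindromic cyclic AMP response element, and GGGGCCCC, a palindrome known to be bound by Plagl1.
Peg3: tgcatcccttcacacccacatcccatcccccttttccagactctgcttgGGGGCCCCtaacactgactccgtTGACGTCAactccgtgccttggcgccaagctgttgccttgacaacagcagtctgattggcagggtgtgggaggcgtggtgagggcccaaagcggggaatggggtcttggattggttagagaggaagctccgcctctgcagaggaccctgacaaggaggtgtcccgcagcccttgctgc
Meg3: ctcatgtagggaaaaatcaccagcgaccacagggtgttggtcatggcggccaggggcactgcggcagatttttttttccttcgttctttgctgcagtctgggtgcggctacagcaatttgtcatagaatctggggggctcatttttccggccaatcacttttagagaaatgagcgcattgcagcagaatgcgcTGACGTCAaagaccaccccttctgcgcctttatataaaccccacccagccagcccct
Plagl1: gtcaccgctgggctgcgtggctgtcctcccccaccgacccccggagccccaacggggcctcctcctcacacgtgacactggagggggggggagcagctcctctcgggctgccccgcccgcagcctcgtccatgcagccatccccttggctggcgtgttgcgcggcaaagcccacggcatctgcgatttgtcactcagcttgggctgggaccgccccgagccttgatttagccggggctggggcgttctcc
Ndn: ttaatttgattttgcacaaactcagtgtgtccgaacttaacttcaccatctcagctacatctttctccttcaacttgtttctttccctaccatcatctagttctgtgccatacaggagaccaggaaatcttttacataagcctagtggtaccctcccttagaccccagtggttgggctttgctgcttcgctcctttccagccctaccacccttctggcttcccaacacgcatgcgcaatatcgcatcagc

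TGACGTCA lay 178 bases before the start of Peg3 and 57 bases before that of Meg3, and was found in 1.55% of 32851 windows of this length. It was searched for after the windows had been seen. GGGGCCCC lay 201 bases before the start of Peg3 and was found in 0.889% of windows. The forkhead motif GTAAACA was present only in the window of Dlk1 among the members, at 87 and 67 bases before its start, and in 3.17% of all windows. The E-box CAGCTG was present 135 bases before the first start of Mest and in 13% of all windows. Each motif was searched on both strands, and no capital stretch overlaps another. The windows held 19 CpG dinucleotides at Plagl1, 10 at Meg3, 8 at Peg3 and 5 at Ndn. These matches are letters in a window, and binding was not measured.

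Between STZ,SD and Con,SD the question was how insulin-deficient diabetes changed muscle transcripts. Peg3 was 2.72-fold higher in STZ,SD, and Meg3, Cdkn1c and Plagl1 were 1.56-fold, 1.42-fold and 1.36-fold higher. Ndn was 1.4-fold lower, whereas Dlk1, Mest and Rian were not called. In limma, with Benjamini-Hochberg adjustment over all genes and calls at an adjusted p under 0.1, 25.8% of all genes were called in this comparison, 13.9% higher and 11.9% lower. Apart from Peg3, 3 of the 7 other members rose and 1 fell. The median difference of the 8 members was 0.30, beside -0.01 for all genes, but it includes Peg3, which was picked for its rise here. The differences of the 7 other members ran from -0.48 (Ndn) to 0.64 (Meg3). In bulk muscle, a lower level from fewer cells of a type and from less RNA per cell cannot be told apart.

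Peg3 in Con,SD ran from 7.53 to 8.18 with a median of 7.84. In the 5 STZ,SD mice it stood at 9.28, 9.37, 10.02, 8.58 and 9.16. All 5 were above the highest control, and the spread among diabetic mice was larger than among controls, with an SD of 0.514 (n = 5) against 0.222 (n = 7). The difference was 1.44 ± 0.21 (SE), the 9th largest rise of the 19938 genes. Leaving out any single array of either group kept it between 1.26 and 1.62. That range is a description and no check of the rise, because Peg3 was picked on these same arrays.

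Plagl1 in Con,SD lay between 6.65 and 6.84, with a median of 6.75. The STZ,SD mice had 7.34, 6.93, 7.10, 7.05 and 7.50. The diabetic values did not overlap the narrow control range, and replicates 1 and 5 were highest. The rise was 0.44 ± 0.09 (SE, limma adjusted p = 0.00312).

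Mest encodes a protein of the alpha/beta hydrolase family and is a marker of fat tissue expansion as well as an imprinted gene of the embryo. Its control values spread from 6.34 to 7.25, and its STZ,SD values were 7.57, 6.12, 6.43, 6.75 and 6.60. Replicate 1 was above and replicate 2 below every control. The difference was -0.04 ± 0.20 (SE, limma adjusted p = 0.916), with a 95% confidence interval from -0.47 to 0.39, and without STZ,SD replicate 1 it was -0.26.

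Ndn encodes necdin, a MAGE family protein known to restrain proliferation and to act in myoblast differentiation. It lay between 7.93 and 8.29 in Con,SD, with a median of 8.10. The STZ,SD values were 7.96, 7.08, 7.33, 8.02 and 7.79. Replicates 2, 3 and 5 were below all controls, whereas replicates 1 and 4 lay within the control range. The fall was -0.48 ± 0.13 (SE, limma adjusted p = 0.0164), and Ndn was the only member called lower. Without any one array the difference stayed between -0.58 and -0.35.

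Cdkn1c, whose product blocks entry into the cell cycle, ran from 7.24 to 7.59 in Con,SD, with a median of 7.48. It stood at 8.20, 7.98, 7.99, 7.66 and 7.92 in STZ,SD. All 5 diabetic arrays were above all controls, replicate 4 by the smallest margin. The rise was 0.51 ± 0.10 (SE, limma adjusted p = 0.00211).

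The cluster of Dlk1, Meg3 and Rian did not move as a block. Meg3, the maternally expressed RNA nearest to the control region of the cluster, had control values of 7.82 to 8.06, with a median of 7.91. Its STZ,SD values were 8.97, 8.28, 8.42, 8.38 and 8.78. None overlapped the controls, and the rise was 0.64 ± 0.10 (SE, limma adjusted p = 0.000201). Dlk1, a membrane ligand related to the Notch ligands, ran from 7.32 to 7.96 in Con,SD and stood at 7.63, 7.73, 7.72, 8.00 and 8.01 in STZ,SD. The groups overlapped, and the difference was 0.16 ± 0.11 (SE, limma adjusted p = 0.319), with an interval from -0.06 to 0.38.

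Rian, which hosts small nucleolar RNAs in its introns, was measured by a dim probe set, with values of 4.05 to 4.79 over all 17 arrays. It fell among the 30% of genes with the lowest mean, where a small change is hard to see. Its difference was 0.01 ± 0.11 (SE, limma adjusted p = 0.962), with an interval from -0.22 to 0.24. The remaining genes of the cluster that were measured, Rtl1, Dio3 and Begain, were not called either, with differences of 0.06 for Rtl1 and -0.05 for Dio3.

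**Figure D1:**
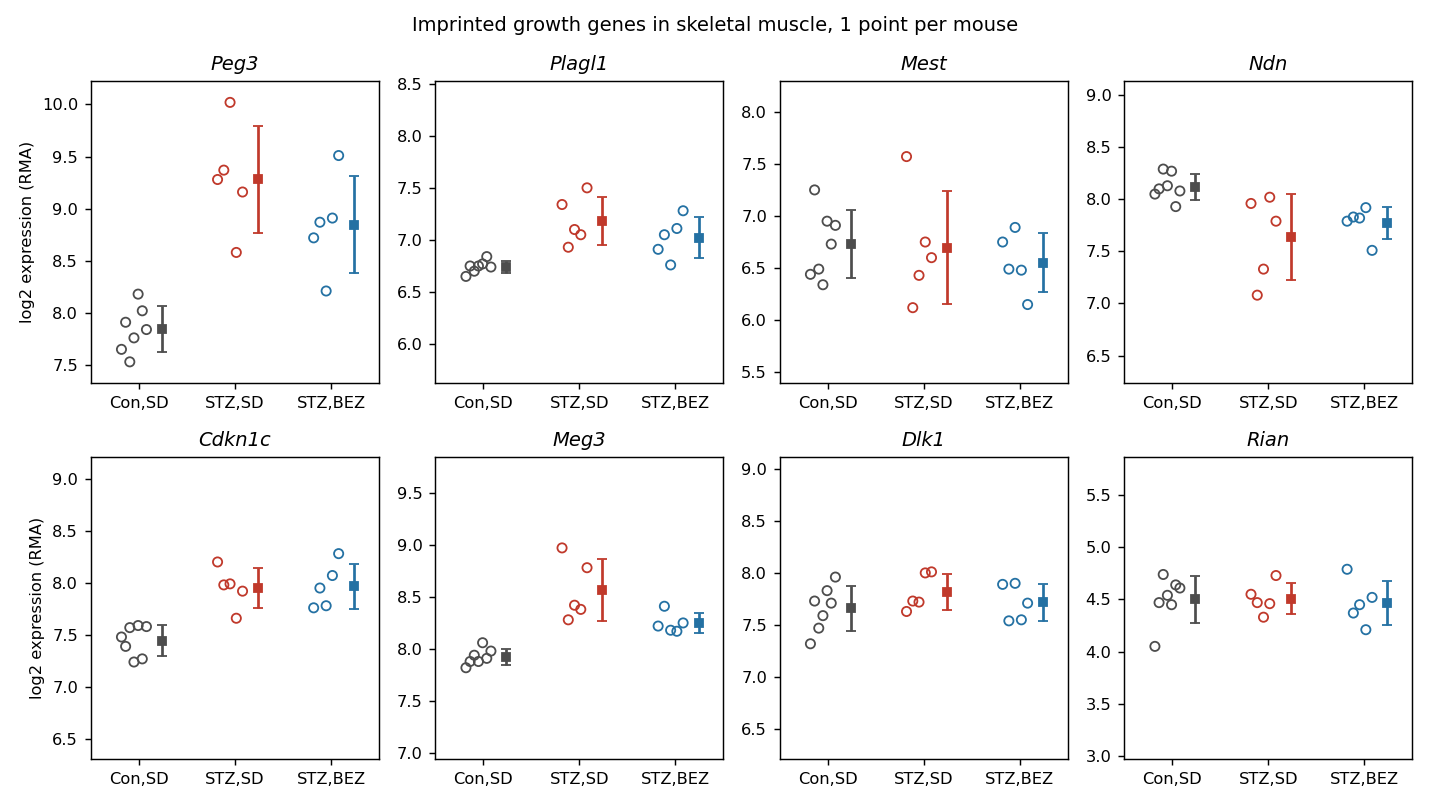
Log2 expression (RMA) of the 8 measured imprinted growth genes in Con,SD (n = 7), STZ,SD (n = 5) and STZ,BEZ (n = 5). Open circles are single mice, squares with bars are group means ± SD, and every panel spans the same number of log2 units on its own offset; the STZ,SD circles lie above all controls for Peg3, Plagl1, Cdkn1c and Meg3.

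Arrays of STZ,SD were all above those of Con,SD for Peg3, which was picked for its rise, and for 3 of the 7 other members (Plagl1, Cdkn1c and Meg3), beside 4.87% of all genes, and all below for 0, beside 3.43%. The members did not rank the diabetic mice alike. STZ,SD replicate 1 was highest for Meg3, Cdkn1c and Mest, replicate 3 for Peg3, replicate 5 for Plagl1, Dlk1 and Rian, and replicate 4 for Ndn.

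Between STZ,BEZ and STZ,SD the question was what bezafibrate changed in diabetic muscle. This comparison shares the STZ,SD arrays with the one above, in which Peg3 was picked for being high. In limma, 0 of the 8 members were called at an adjusted p under 0.1, where 0.0201% of all genes were called, which is 4 genes. At an unadjusted p under 0.05, 1 member was lower and 0 were higher, beside 5.69% of all genes in either direction, and SAM also called 0 members. The median difference of the members was -0.12, beside 0 for all genes. Of the 8, 6 had a lower mean with bezafibrate, and Ndn and Cdkn1c had a higher one.

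The STZ,BEZ values of Peg3 were 8.72, 8.87, 8.21, 8.91 and 9.51. Replicate 3 was below all STZ,SD arrays and the other 4 lay within their range. The difference was -0.44 ± 0.22 (SE, limma adjusted p = 0.911), with an interval from -0.91 to 0.03. Leaving out single arrays moved it between -0.61 and -0.25.

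Meg3 had the member difference with the smallest p. Its STZ,BEZ values were 8.22, 8.41, 8.18, 8.17 and 8.25, and 4 of the 5 were below every STZ,SD array. The difference was -0.32 ± 0.10 (SE, limma adjusted p = 0.778), with an interval from -0.54 to -0.10 and an unadjusted limma p of 0.00631. Cdkn1c lay at the same mean level in both diabetic groups, with a difference of 0.02 ± 0.11 (SE) and an interval from -0.21 to 0.25. For Plagl1 the difference was -0.16 ± 0.10 (SE), with an interval from -0.37 to 0.05. For Ndn it was 0.14 ± 0.14 (SE), with an interval from -0.16 to 0.44. For Dlk1, Mest and Rian the differences were -0.10, -0.14 and -0.04. Arrays of the 2 groups were all above or all below each other for 0 members, beside 0.677% and 0.487% of all genes.

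STZ,BEZ was also set against Con,SD, to see how far treated diabetic muscle lay from control muscle. This comparison shares the Con,SD arrays with the first comparison, in which Peg3 was picked for standing above them. The p of Peg3 here, and its place in the counts and the median, are therefore not independent of that choice. Apart from Peg3, 4 of the 7 other members were called. Peg3 was 2.01-fold higher than in controls, Cdkn1c 1.44-fold, Meg3 1.25-fold and Plagl1 1.21-fold higher, and Ndn was 1.27-fold lower. In limma, 21.6% of all genes were called, 13.1% higher and 8.45% lower, and 5 of the 8 members, of which 4 rose and 1 fell. The median difference was 0.17, beside -0.01 for all genes. The count was 3 without STZ,BEZ replicate 2, 4 or 5, when Plagl1 and Ndn were no longer called, and 3 with the hepatocyte marker level, which differed between these groups, as a covariate, a fit chosen after seeing the data.

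All 5 STZ,BEZ arrays of Peg3 were above all 7 controls, which had a part in its choice, and the rise was 1.00 ± 0.21 (SE, limma adjusted p = 0.0036). Cdkn1c in STZ,BEZ stood at 7.76, 7.95, 7.78, 8.07 and 8.28, all above the controls, with a rise of 0.52 ± 0.10 (SE, limma adjusted p = 0.00231). Meg3 was also above the controls on all 5 arrays, and rose by 0.32 ± 0.10 (SE, limma adjusted p = 0.0305). With the hepatocyte level as a covariate this last difference was 0.30 and its adjusted p was 0.104, against adjusted p of 0.0309 to 0.0921 without single arrays.

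Plagl1 in STZ,BEZ had 6.91, 7.05, 6.76, 7.11 and 7.28, and replicate 3 overlapped the controls. Its rise was 0.28 ± 0.09 (SE, limma adjusted p = 0.0526). Ndn had 7.79, 7.83, 7.82, 7.92 and 7.51, all below the controls, though replicate 4 lay just under the lowest control at 7.93. Its fall was -0.34 ± 0.13 (SE, limma adjusted p = 0.0902), and the call was lost without any one of Con,SD replicates 2, 3, 4, 5 and 7 or of the 5 STZ,BEZ arrays, where the difference lay between -0.38 and -0.28. Dlk1 had 7.89, 7.54, 7.90, 7.55 and 7.71, Mest had 6.75, 6.49, 6.89, 6.48 and 6.15, and both overlapped the controls, with differences of 0.06 ± 0.11 and -0.18 ± 0.20 (SE).

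Arrays were all above the controls for 3 of the 8 members (Cdkn1c, Meg3 and Peg3, the last picked with these controls), beside 6.01% of all genes. They were all below for 1 (Ndn), beside 2.5% of all genes.

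**Figure D2:**
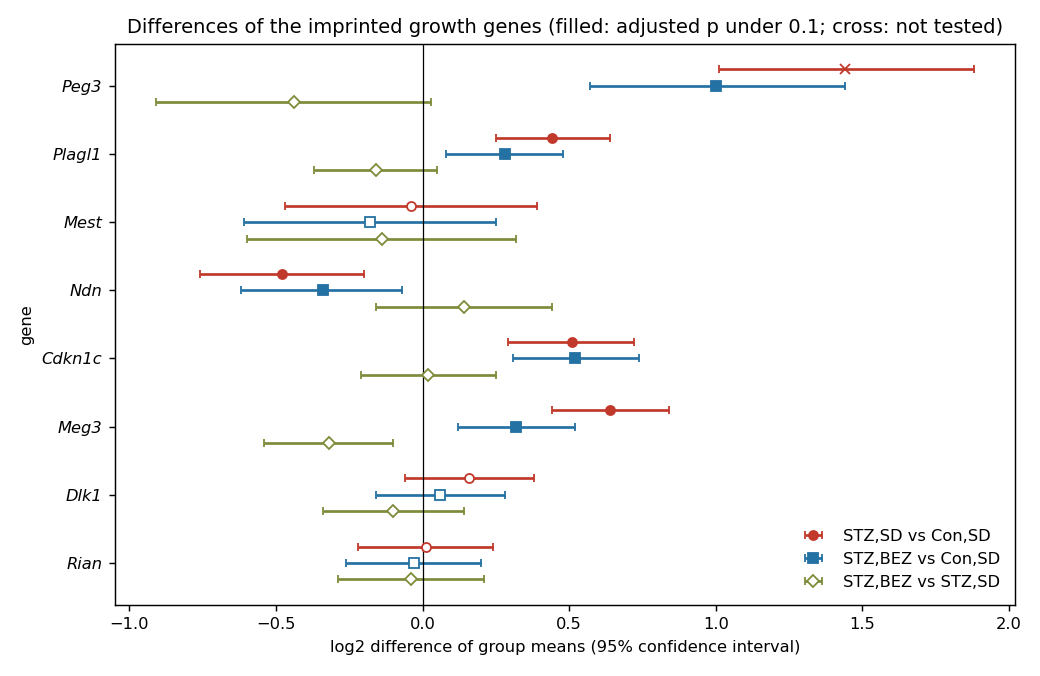
Log2 differences of the group means (horizontal axis) with 95% confidence intervals for the 8 members in the 3 comparisons, which share arrays. Filled symbols have a limma adjusted p under 0.1, open symbols do not, and the cross marks Peg3 in the comparison that picked it; the STZ,BEZ vs STZ,SD difference of Peg3 was -0.44 and that of Meg3 was -0.32.

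Other imprinted genes were described from a list of 67, of which 55 were measured. In STZ,SD against Con,SD, 13 rose and 2 fell, which is 23.6% and 3.64% of those measured, beside 13.9% and 11.9% of all genes. Their median difference was 0.02, beside -0.01 for all genes. In STZ,BEZ against STZ,SD, limma called 0 of the 55, with 3 lower and 0 higher at an unadjusted p under 0.05, and in STZ,BEZ against Con,SD 8 rose and 2 fell, which is 14.5% and 3.64%, beside 13.1% and 8.45% of all genes.

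Zim1, the maternally expressed zinc finger gene that neighbours Peg3 in the RefSeq gene order, stood in Con,SD between 6.85 and 7.11. Its STZ,SD values were 7.97, 7.74, 8.41, 7.36 and 8.05, and its STZ,BEZ values were 7.27, 7.58, 7.25, 7.58 and 7.95. Every array of either diabetic group was above all controls. The rise was 0.90 ± 0.14 (SE, limma adjusted p = 0.00028) in STZ,SD and 0.52 ± 0.14 (SE, limma adjusted p = 0.0182) in STZ,BEZ. Usp29, the neighbour on the other side, differed from controls by -0.01 ± 0.07 in STZ,SD and was not called.

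Igf2, the fetal insulin-like growth factor from the cluster next to Cdkn1c, had control values of 7.62 to 7.91. In STZ,SD it stood at 9.93, 8.50, 8.74, 8.05 and 8.31, so that replicate 1 was far above the others. The rise was 0.92 ± 0.21 (SE, limma adjusted p = 0.00584), and 0.61 without STZ,SD replicate 1, still called. In STZ,BEZ all 5 arrays were again above the controls, with a difference of 0.61 ± 0.21 (SE, limma adjusted p = 0.0633), a call lost without Con,SD replicate 3 (0.58) or STZ,BEZ replicate 2 (0.61) or 5 (0.52). Igf2r, the receptor that clears Igf2, was not called, with 0.07 ± 0.07 in STZ,SD.

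Grb10 encodes an adaptor that inhibits the insulin and insulin-like growth factor receptors. It ran from 8.05 to 8.33 in Con,SD and stood at 9.29, 8.69, 8.52, 8.43 and 8.98 in STZ,SD. The groups did not overlap, and the rise was 0.60 ± 0.12 (SE, limma adjusted p = 0.00214), with 0.47 ± 0.12 (SE, limma adjusted p = 0.014) in STZ,BEZ. Peg10, a paternally expressed gene derived from a retrotransposon, rose by 1.00 ± 0.17 (SE, limma adjusted p = 0.000478) in STZ,SD, where replicate 4 at 6.80 lay just under the highest control at 6.84. Its neighbour Sgce, which encodes a sarcoglycan and shares its imprinted domain, had a difference of 0.01 ± 0.09. Airn, the noncoding RNA antisense to Igf2r, rose by 0.52 ± 0.08 (SE, limma adjusted p = 0.000348).

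Phactr2, listed in the imprinted domain of Plagl1, rose by 0.27 in STZ,SD. Of the list members that fell, Pon3 differed by -0.51 ± 0.15 and Nap1l4 by -0.26 ± 0.05 (SE). Magel2, a MAGE family gene next to Ndn, differed by 0.06 ± 0.08 and was not called. The 3 other genes of that domain measured under 1 symbol were not called either. A probe set shared by Snurf and Snrpn of that domain was outside the main fit. It ran from 9.05 to 9.49 in Con,SD, with group means of 9.24, 8.43 in STZ,SD and 8.69 in STZ,BEZ. A probe set shared by Ube3a and genes of other loci had means of 8.51, 8.88 and 8.92 in that order. Phlda2, which lies near Cdkn1c and limits placental growth, differed by 0.06 ± 0.08, and Dcn, which encodes the matrix protein decorin, by -0.08 ± 0.05.

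**Figure D3:**
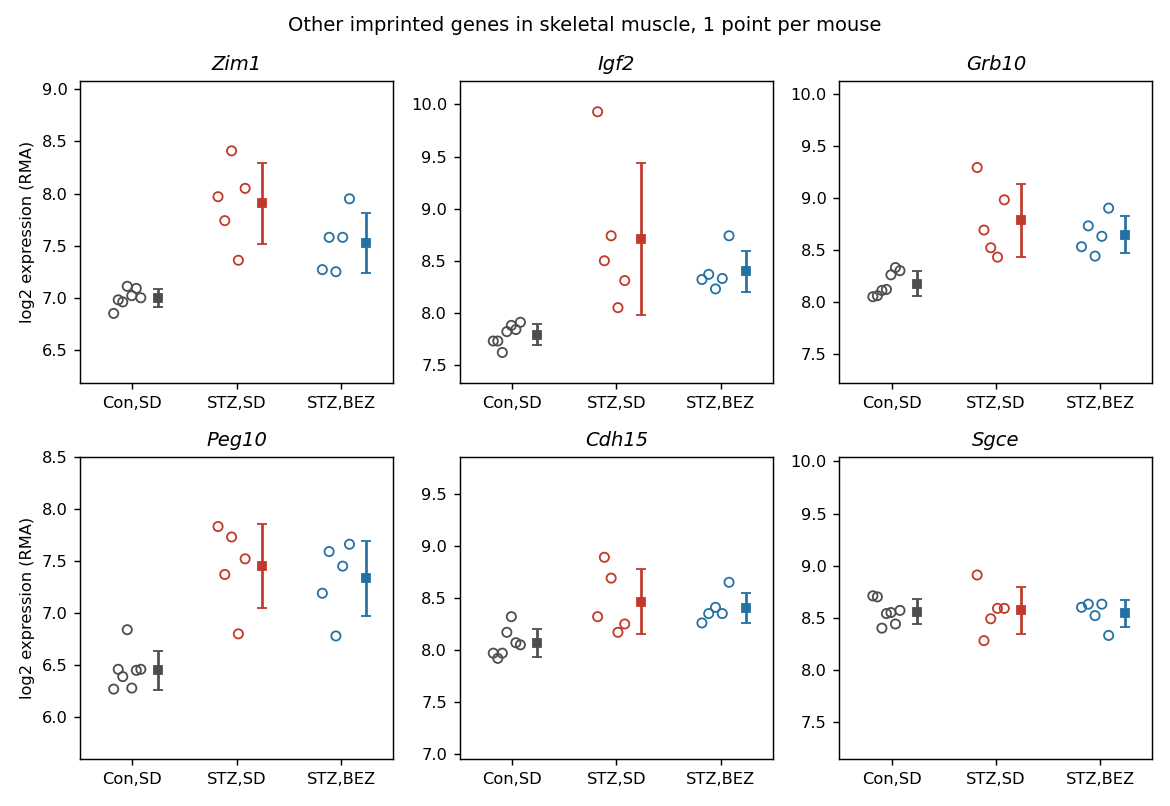
Log2 expression (RMA) of Zim1, Igf2, Grb10, Peg10, Cdh15 and Sgce in Con,SD (n = 7), STZ,SD (n = 5) and STZ,BEZ (n = 5), drawn as for the members with circles for mice and squares with bars for means ± SD. Zim1, Igf2 and Grb10 were above all controls in both diabetic groups, and Sgce, with a difference of 0.01, overlapped them.

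Of 44 listed small RNAs of the member clusters, 35 were measured, all of them microRNA precursors, and no small nucleolar RNA was matched under its listed name. The probe sets detect the precursor or its host transcript. In STZ,SD against Con,SD 4 rose, which is 11.4%, beside 13.9% of all genes. Mir341, from the same cluster as Meg3, rose by 0.37 ± 0.09 (SE, limma adjusted p = 0.00602), with all 5 arrays above the controls. Mir370 rose by 0.23 ± 0.07 (SE, limma adjusted p = 0.0365), and its STZ,BEZ arrays were all below the STZ,SD arrays, with a difference of -0.24 ± 0.08 (SE, limma adjusted p = 0.778). Mir335, from the Mest locus, differed by -0.08 ± 0.05, and Mir127 and Mir136 were not called, at 0.16 and -0.10. The mature RNAs of the first 2, from RefSeq (GRCm38.p6), are shown to identify them, with the seed (bases 2 to 8) in capitals, and no seed is shared.
mmu-miR-341-5p: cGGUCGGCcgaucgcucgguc
mmu-miR-341-3p: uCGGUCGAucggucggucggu
mmu-miR-370-5p: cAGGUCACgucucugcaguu
mmu-miR-370-3p: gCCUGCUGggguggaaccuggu

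Genes whose profile was most like that of Peg3 were ranked by Pearson's r over the 17 arrays after each group's mean was subtracted, as a description. The leading 5 were Rplp0 (r = 0.909), Ppp1r1a (0.901), Dmd (0.885), Pcgf3 (0.872) and Zim1 (0.866). With the values as they were, group differences included, they were Ppp1r1a (0.974), Dmd (0.968), Kif1b (0.966), Tbc1d4 (0.961) and Zim1 (0.958). Zim1 and the others in these lists share the arrays and their scaling with Peg3. Of the members, Cdkn1c was most like Peg3 within groups (r = 0.573), then Plagl1 (0.419), whereas Meg3 had 0.0792 and Ndn -0.565. Many genes outside the list were closer to Peg3, since Cdkn1c ranked 704 and Plagl1 1972 among all genes. Meg3 was closer to Plagl1 (0.67) and to Grb10 (0.82) than to Peg3.

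**Figure D4:**
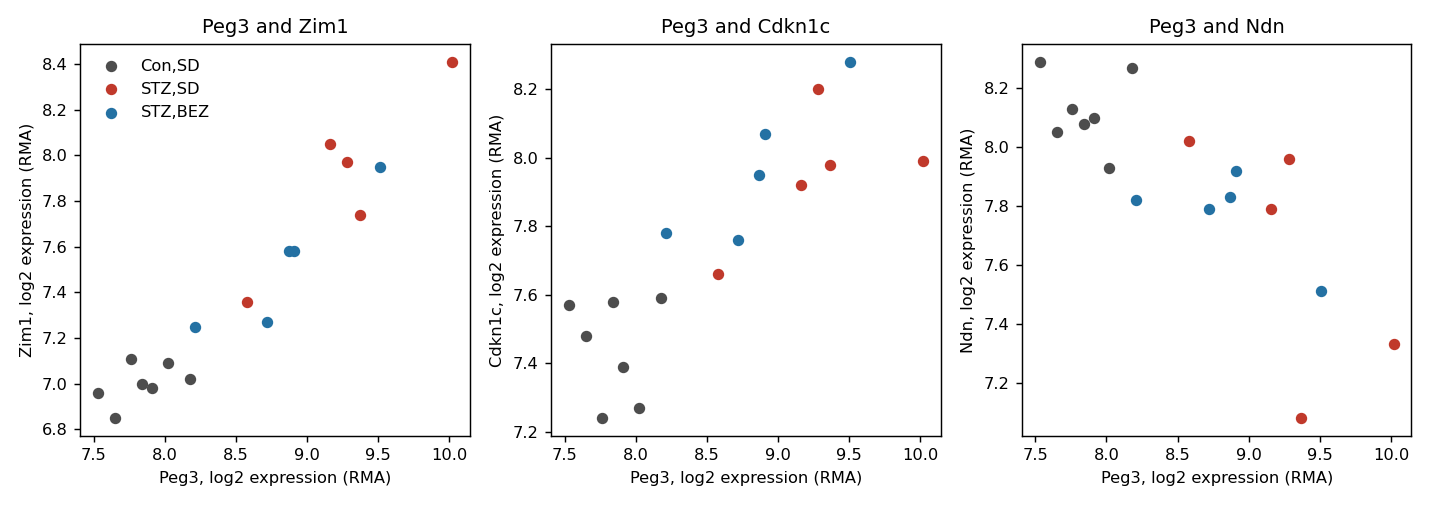
Log2 expression (RMA) of Zim1, Cdkn1c and Ndn (vertical axes) against Peg3 (horizontal axes), 1 point per mouse coloured by group. Within groups, r with Peg3 was 0.866 for Zim1, 0.573 for Cdkn1c and -0.565 for Ndn, over 17 arrays.

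Genes of the pathways in which the members act were counted from lists, to be read beside the 13.9% of all genes that were higher and the 11.9% that were lower in STZ,SD. On a broad list of cell cycle inhibitors, 7 of 11 measured (63.6%) rose in STZ,SD and 0 fell. Of its cyclin-dependent kinase inhibitors, the class of Cdkn1c, Cdkn1b and Cdkn2d rose, whereas Cdkn2a, Cdkn2b and Cdkn2c were not called. Rb1, which encodes the retinoblastoma protein, rose by 0.57 ± 0.10 (SE, limma adjusted p = 0.000593), Gas1 by 0.46 and Cdkn1b, which encodes the inhibitor p27, by 0.47. Of 14 measured genes of G1 and proliferation, 1 rose (Pcna, 0.26) and 6 (42.9%) fell, among them the cyclin gene Ccne2 at -0.73 ± 0.15 and the kinase gene Cdk4 at -0.33 ± 0.07 (SE). In STZ,BEZ against Con,SD the inhibitors again had 7 rises and 0 falls, and the genes of G1 and proliferation 1 rise and 4 falls (28.6%), beside 13.1% higher and 8.45% lower among all genes.

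Of 30 measured genes of the Notch pathway, to whose ligands Dlk1 is related, 8 (26.7%) rose in STZ,SD and 1 (3.33%) fell, beside 13.9% and 11.9% of all genes. The coactivator gene Maml3 rose by 0.63 ± 0.08 (SE, limma adjusted p = 3.55e-05) and the receptor gene Notch2 by 0.32, whereas the target gene Hes1 fell by 0.27. Of 12 measured partners and effectors of the Peg3 protein, 2 rose, the ubiquitin ligase gene Siah1a at 0.39 ± 0.09 and Rela at 0.25, and 1 fell, the deacetylase gene Hdac1 at -0.25. These shares, 16.7% and 8.33%, were near those of all genes. Of 22 measured factors that keep imprints, 6 (27.3%) rose and 2 (9.09%) fell. Tet2, which encodes an enzyme that oxidises methylated cytosine, rose by 0.63 ± 0.10 (SE, limma adjusted p = 0.000397), and the DNA methyltransferase gene Dnmt3a fell, with a difference of -0.20 ± 0.07 (SE). The zinc finger gene Zfp57 and its partner Trim28 were not called, at -0.05 and 0.09.

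Markers of the cells that carry Peg3 in muscle were read beside these results. The mean level of 10 satellite cell markers was 7.71 to 7.86 in Con,SD and 7.87 to 7.95 in both STZ,SD and STZ,BEZ, with means of 7.76, 7.91 and 7.90, so it moved in the direction of Peg3 by a smaller amount. In STZ,SD 2 of the 10 (20%) rose, beside 13.9% of all genes, Myf5 by 0.31 and Cdh15, itself an imprinted gene, by 0.39. Pax7, which defines the cells, differed by 0.10 ± 0.07 (SE, limma adjusted p = 0.352). The 9 markers of fibroadipogenic progenitors had overlapping mean levels, 9.24 to 9.50 in Con,SD, 8.72 to 9.68 in STZ,SD and 8.99 to 9.49 in STZ,BEZ. In STZ,SD 0 were higher and 1 (Cd34, 11.1%) was lower, beside 11.9% of all genes. The STZ,SD arrays lowest for Ndn, replicates 2 and 3, were lowest for these markers, at 8.72 and 8.80. Replicates 1, 4 and 5 had 9.58, 9.68 and 9.47. In STZ,BEZ replicate 5 was lowest for both (8.99), but replicate 4, highest for Ndn, was next lowest for the markers (9.19). This relation was not tested. Endothelial markers were higher in the diabetic groups, at 8.65 to 8.95 in Con,SD, 8.93 to 9.17 in STZ,SD and 9.01 to 9.13 in STZ,BEZ, with 4 of 8 (50%) called higher in STZ,SD. Smooth muscle markers had means of 8.54, 8.7 and 8.75 in the same order, with 2 of 6 (33.3%) higher in STZ,SD. A higher level was thus not particular to satellite cell markers, whereas the macrophage means were 7.7, 7.7 and 7.68. The part of these cells in the differences of the members was not tested.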

How the data were processed

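The authors hybridised muscle RNA of each of 17 mice to 1 Affymetrix Mouse Gene array of the ST type. They deposited log2 expression values computed by RMA, which corrects background, equalises the arrays by quantiles and summarises probes by median polish. The submitters' processing notes name RMA and Affymetrix Expression Console 1.2. Equalising by quantiles hides a common shift of most genes. Values ran from 2.76 to 14.6, and scanner files, detection calls and scan dates were not used here, so no batch was tested.

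Of 35556 probe sets, 21789 had 1 gene symbol in the platform annotation, 1621 had several and 12146 had none. Probe sets with several symbols were not used in the main fit, and only the values of those that carry Snrpn and Ube3a are described. For each of 19938 genes the probe set with the highest mean was kept.

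Groups came from the labels, which number the arrays as biological replicates. A single linear model over all 17 arrays gave the 3 comparisons (R 4.3.3 and limma 3.58.1, lmFit then eBayes). Calls were made at a Benjamini-Hochberg adjusted p under 0.1 over all genes, the rate that the study's methods state. The study's method, SAM, was an alternative with 100 permutations. Other alternatives changed scaling, filters, weights and samples. Genes named are the members, a list of imprinted neighbours, up to 6 genes of each other list with the smallest adjusted p, further genes chosen after their values were seen, and the 5 most like Peg3. Members and lists were chosen with earlier results of these data known. Scripts were tested on simulated data.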

Additional observations from a re-analysis of the deposited data

Results flagged for a closer look

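Rian in Con,SD replicate 1 was the only value of the 8 members that stood apart from its group, at 4.05 where the next control was at 4.45. The gap was 0.585 of the range of the 7 controls. With 24 groups of values examined, about 1 in 20 is set apart in this way by chance. The same array carried the high hepatocyte marker level, and the relation of the 2 was not tested.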

How the results depend on the processing

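In STZ,SD against Con,SD, 4 members other than Peg3 were called in each of the 12 fits without 1 array and in each of 11 other alternatives, and other imprinted genes called ranged from 14 to 17. In STZ,BEZ against STZ,SD 0 members and 0 other imprinted genes were called under every alternative run, although all genes called rose from 4 higher to 23 higher and 1 lower with SAM, 19 higher with the hepatocyte covariate, 10 higher and 1 lower with array weights and 7 higher and 1 lower in a fit of the 2 groups. In STZ,BEZ against Con,SD, members called ranged from 3 to 5 and other imprinted genes from 7 to 12 without 1 array, and they numbered 3 and 6 with the hepatocyte covariate, which was added once the values were known. The cause was not tested.

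Of the differences of single genes, 0 changed sign while called, and 24 calls were lost, all in STZ,BEZ against Con,SD. Those of Plagl1, Ndn and Igf2 (differences of 0.28, -0.34 and 0.61) make up all but 1 of the 24, and the remaining one is that of Meg3 with the hepatocyte covariate. With the 30% dimmest genes left out, Rian could not be tested. The replicate number of the labels as a block gave 4 of the 7 members other than Peg3 in STZ,SD against Con,SD, 0 of 8 in STZ,BEZ against STZ,SD and 4 of 8 in STZ,BEZ against Con,SD, and 14, 0 and 8 other imprinted genes. Same-numbered arrays had correlations of their deviations from the group means between -0.239 and 0.083. Differently numbered arrays were not set beside them, so these values cannot tell whether the numbers pair the mice. The block lost the calls of Ndn (-0.39) and Igf2 (0.64) in STZ,BEZ against Con,SD. Signal over background was not available in the values used, so it is not known which dim probe sets, such as that of Rian, measure their transcript.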
